A study of Mus musculus with 42 samples.

Results

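A group of 10 genes of NAD+ metabolism was followed across mouse cleavage embryos. They were chosen by name among the genes of NAD+ synthesis, transport and breakdown that the deposited expression table lists. The choice followed no rule on their measured values, but earlier results of these data were known. Another 16 pathway genes with a row are described separately. They are 10 of the 15737 genes with a symbol listed once in that table. The set holds Nmnat1, Nmnat2 and Nmnat3, whose products make NAD+ from nicotinamide mononucleotide (NMN), the NAD+ synthetase gene Nadsyn1, Qprt and Kynu of the route from tryptophan, the NAD+ kinase gene Nadk, the mitochondrial NAD+ carrier gene Slc25a51, and Cd38 and Nnmt, whose products consume NAD+ and nicotinamide. At the transition from early to late 2-cell embryos Nmnat1 rose 15.8-fold, or between 9.79-fold and 24.6-fold with 1 library left out, the 1 change among these genes whose adjusted p stayed under the threshold in all 12 alternative fits. Nadk, Nmnat1 and Slc25a51 had reads in all 16 libraries, whereas Qprt, Cd38 and Nnmt had 13, 1 and 1 reads in all libraries together.

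NAD+ is made from nicotinamide by the salvage route, in which NAMPT forms NMN and the NMNAT enzymes join NMN to an adenylate group to give NAD+. The NMNAT enzymes also complete the routes from nicotinic acid and from tryptophan, where they form the acid dinucleotide that NAD+ synthetase then amidates. FK866 inhibits NAMPT, and NMN added to the culture medium enters the salvage route after the inhibited step, so that each route by which added NMN becomes NAD+ passes through an NMNAT. Nampt itself lies on chromosome 12, outside the rows used, and was not analysed here.

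RNA-seq was performed on embryos of superovulated ICR mice mated to ICR males, in 18 samples of 9 groups with 3 embryos pooled per library, and the question was how NAD+ supply and histone deacetylation bear on the minor and major activation of the embryo's own genome. Early 2-cell embryos were collected 34 h after hCG, late 2-cell embryos at 48 h and 4-cell embryos at 58 h. The late 2-cell groups were untreated controls and embryos given 0.01 µM FK866, 0.01 µM FK866 with 10 µM NMN, 10 nM of the deacetylase inhibitor trichostatin A (TSA), or a Sirt1 knockdown, and the 4-cell groups were controls, FK866 and FK866 with NMN. All groups were of unmodified genotype. The study's methods give DMSO as the control for the inhibitors, and the knockdown combined siRNA against Sirt1, Trim21 mRNA and a SIRT1 antibody injected into zygotes, with scrambled siRNA and Trim21 mRNA as its negative control. The deposited late 2-cell control column does not say which of these it received. Each value is the FPKM of a gene, its reads per kilobase of exon, scaled to the reads of its library, so levels of different genes can be set side by side. Because total RNA per embryo was not measured, a change in FPKM cannot be told apart from a change in the rest of the RNA.

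The table has 1 column per group. Reads of single libraries were recovered from the steps in the values, which showed 2 libraries added together in 7 columns and 1 library in the other 2, with totals from 3169677 to 10003481 reads. Within a column, the larger library is called A and the smaller B. These letters carry no replicate number, and tests over 2 libraries measure the spread between these libraries. The study calls its 2 replicates per group biological, and does not say whether they came from separate collections of embryos.

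The header of a column and the study's own gene tables disagree on the group of 5 of the 9 columns, so each of these columns is given under both readings. The columns of the early 2-cell group and of late 2-cell control, FK866 and FK866+NMN embryos are not in dispute. By the tables, the column headed late 2-cell TSA holds 4-cell control embryos, the column headed late 2-cell Sirt1 holds 4-cell FK866 embryos, and the column headed 4-cell control holds 4-cell FK866+NMN embryos, with 84 of 84 table values found in each. The column headed 4-cell FK866 is then the TSA group, with the direction of 1203 of 1203 table genes matched, and the column headed 4-cell FK866+NMN is the Sirt1 knockdown, with 773 of 821 matched. Sirt1, the knockdown target, was at 86.6 and 66.2 FPKM in the late 2-cell control libraries, at 32.4 and 73.1 FPKM in the column headed Sirt1, and at 11.3 FPKM in the 1 library that the tables make the knockdown. Sirt1 was also at 7.61 FPKM in the 1 library headed 4-cell FK866, which is TSA by the tables. The libraries labelled Sirt1 by their header thus overlapped the control in Sirt1. The summed level of 5 genes characteristic of 2-cell embryos (Zscan4c, Zscan4d, Zfp352, Usp17lc and Tdpoz4) was 234 and 261 FPKM in the single libraries headed 4-cell FK866 and, respectively, 4-cell FK866+NMN, and from 8.22 to 33.0 FPKM in the 6 libraries headed late 2-cell TSA, late 2-cell Sirt1 and 4-cell control. In the 8 libraries of the undisputed columns it ran from 77.2 to 364 FPKM. By these genes the 5 disputed columns fell with the stages that the tables give. Of 8 cumulus or granulosa cell genes, which would mark carried-over follicle cells, the sum ran from 0 to 8.39 FPKM, highest in the library headed 4-cell FK866, where a list of 5 blood cell genes also had its highest sum, 136 FPKM. In that library Cyp19a1 was at 8.12 FPKM and Hba-a1 at 130 FPKM, and the defining markers Foxl2 and Inhbb of granulosa cells and Ptprc of white blood cells were at 0. The other globin gene of the list, Hbb-bs, was at 0.834 FPKM there, Cd52 at 0.54 FPKM and Lyz2 at 4.87 FPKM. The sum of 5 oocyte genes (Zp2, Zp3, Nlrp5, Padi6 and Tle6) ran from 35.4 to 410 FPKM, above 0 in each library. These 5 of 10 listed genes were separated in all libraries. Ooep and Dppa3 were not separated in early 2-cell embryos. In the libraries headed TSA, lowest in the sum, Ooep was at 0 but Dppa3 at 3780 and 3530 FPKM. In the library headed 4-cell FK866, Ooep was at 51 FPKM and Dppa3 at 762 FPKM.

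Nmnat1 and Nadsyn1 were the genes called between early and late 2-cell embryos in the fit over all columns, although the call for Nadsyn1 was lost with the 2 columns fitted alone. The stretch before the start of each is shown to let a reader see what kind of promoter it has. Nmnat1 lies on chromosome 4 of GRCm38 (chr4:149467572-149485202, minus strand) and Nadsyn1 on chromosome 7 (chr7:143795584-143822849, minus strand). The 250 bases before the first RefSeq start of Nmnat1 are chr4:149485211-149485460 and those of Nadsyn1 are chr7:143822853-143823102, read from GRCm38.p6 on the minus strand, with GC boxes (GGGCGG on either strand) and CCAAT boxes in capitals.
Nmnat1: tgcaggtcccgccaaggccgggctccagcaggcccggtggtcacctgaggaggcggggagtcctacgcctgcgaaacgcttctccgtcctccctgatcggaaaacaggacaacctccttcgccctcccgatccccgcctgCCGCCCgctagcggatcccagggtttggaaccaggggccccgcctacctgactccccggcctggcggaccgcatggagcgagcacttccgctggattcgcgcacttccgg
Nadsyn1: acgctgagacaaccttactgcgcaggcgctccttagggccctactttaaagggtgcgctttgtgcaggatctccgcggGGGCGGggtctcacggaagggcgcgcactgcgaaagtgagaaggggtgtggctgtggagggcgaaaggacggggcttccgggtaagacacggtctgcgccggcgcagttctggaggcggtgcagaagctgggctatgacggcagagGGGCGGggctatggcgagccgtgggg
Both stretches were rich in the dinucleotide CG, with 24 in Nmnat1 and 23 in Nadsyn1 against a median of 6 over 32851 RefSeq promoters, and neither of these 2 stretches held TATAAA or CCAAT. A GC box was present once in Nmnat1 and 2 times in Nadsyn1, and 32.7% of all promoters of this length hold at least 1. A second RefSeq start of Nmnat1 lies close by, and the 250 bases before it overlap those shown and held 23 CG dinucleotides, 1 GC box and 1 CCAAT box. RefSeq promoters were found for 7 of the 10 genes, without Slc25a51, Kynu and Nnmt. The stretches before the starts of Nmnat2 and Qprt held 15 and 6 CG dinucleotides with no GC box or CCAAT box, that of Cd38 held 1, and that of Nmnat3 held 9 with 2 GC boxes. Nadk has 2 listed starts, one with 4 CG dinucleotides and a CCAAT box and the other with 18 and a GC box.

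The levels of these genes spanned 3 classes. Nadk, whose product phosphorylates NAD+ to NADP+, was the highest with a mean of 48.4 FPKM over the 9 columns and a range from 15.0 to 72.7 FPKM over libraries. Nmnat1, the nuclear NMNAT, had a mean of 15.9 FPKM and a range from 0.993 to 33.8 FPKM. Slc25a51, which carries NAD+ into mitochondria, had a mean of 15.7 FPKM and a range from 0.712 to 29.0 FPKM. The next class had reads in some libraries and none in others. Nmnat2, the cytosolic and Golgi NMNAT known from axons, was read in 9 of 16 libraries, Nadsyn1 in 5, and Nmnat3, the mitochondrial NMNAT, in 4. Kynu, kynureninase of the tryptophan route, was also read in 4 libraries. The highest level in any library was 2.75 FPKM for Nmnat2, 3.12 for Nmnat3, 1.95 for Nadsyn1 and 1.32 for Kynu. Qprt, which takes quinolinate into the route from tryptophan, had 12 of its 13 reads in 1 library, headed 4-cell control, at 0.828 FPKM, and the last in FK866+NMN library A. Cd38, an NAD+ glycohydrolase, had 1 read, in late 2-cell FK866 library B, and Nnmt, which methylates nicotinamide, had 1 read, in library A headed late 2-cell Sirt1. For Cd38 a count of 0 allowed a level of up to 0.0771 to 0.243 FPKM, depending on the library, and for Nnmt of up to 0.190 to 0.601 FPKM, taking 3 reads as the limit, for counting error only. At this depth Cd38, Nnmt and, in most libraries, Qprt were not detectable above these limits. In all, 7 of the 10 genes reached 1 FPKM per library in at least 1 column and entered the tests, all except Qprt, Cd38 and Nnmt, and a gene that entered through 1 high column had to differ somewhere.

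**Figure D1:**
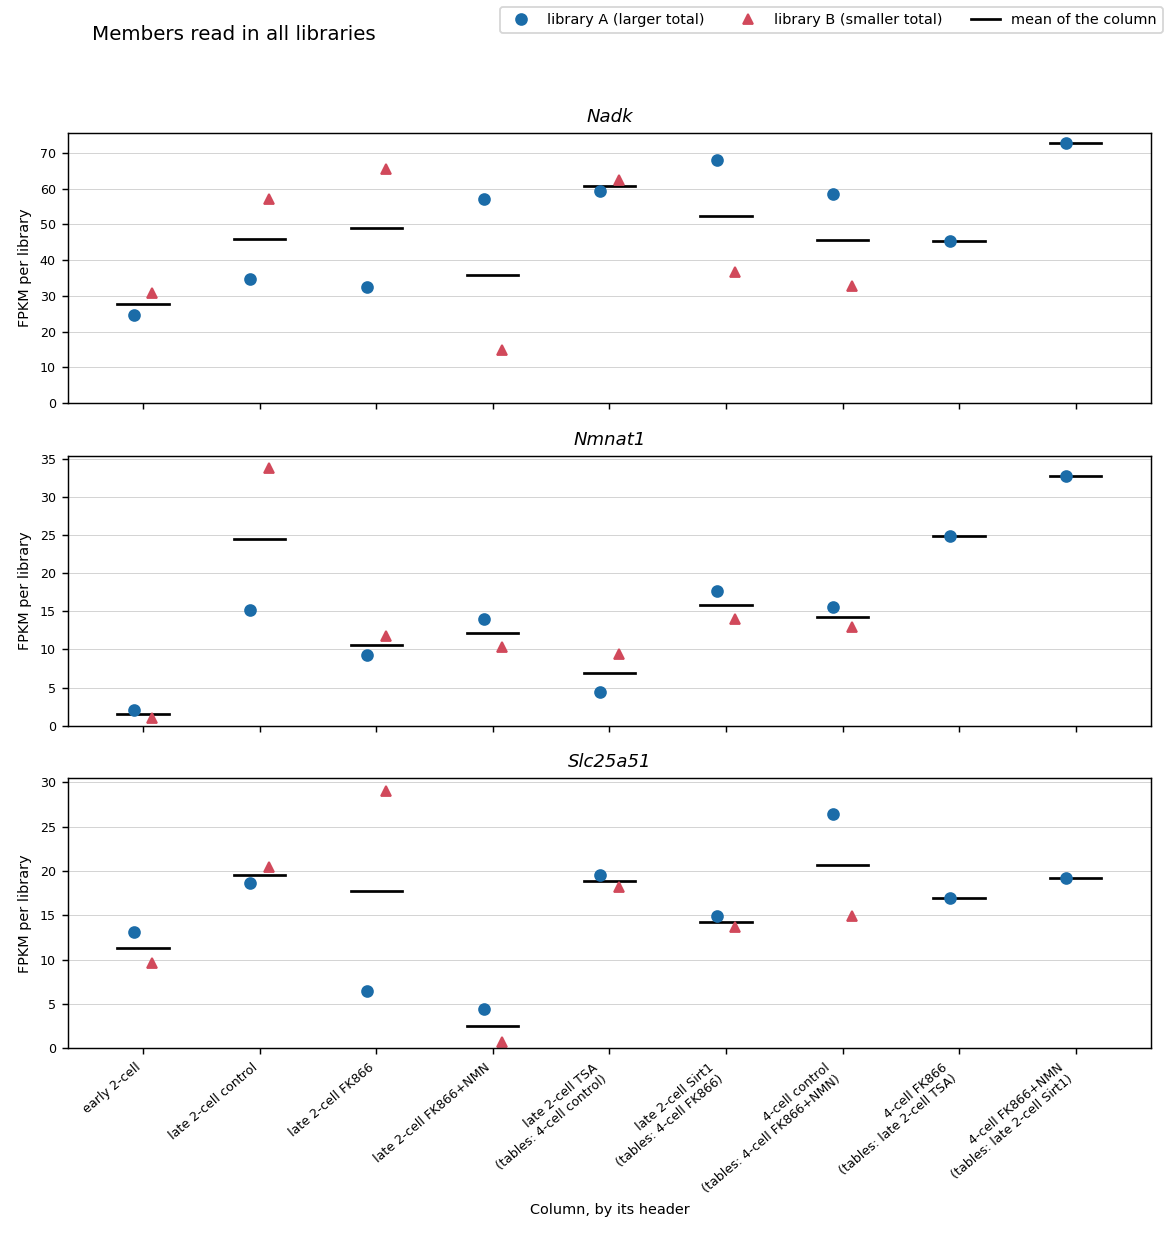
FPKM per library (y axis, linear) of Nadk, Nmnat1 and Slc25a51 in the 9 columns (x axis, by header, with the group the study's tables give in brackets). Circles are library A, triangles library B and bars the column mean, and the early 2-cell libraries are the lowest for Nmnat1 at 2.10 and 0.993 FPKM.

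The first comparison asked what changed between early and late 2-cell embryos, over which the major wave of embryonic transcription begins. Nmnat1 was at 2.10 and 0.993 FPKM in the early 2-cell libraries (36 and 14 reads) and at 15.1 and 33.8 FPKM in the late 2-cell control libraries (300 and 427 reads). Each late library lay above both early libraries by a wide margin, although the 2 late libraries also differed from each other. The difference was 3.25 ± 0.52 (SE) on the log2(FPKM + 1) scale, with an adjusted p of 0.00251 in limma with Benjamini-Hochberg adjustment over 11543 genes, and a gene is said to be called where this adjusted p is under 0.05. When the 2 columns were fitted alone, the adjusted p was 0.0276 in limma over 8947 genes. The fold of 15.8 was 9.79 without late 2-cell control library B and 24.6 without early 2-cell library A. With each library centred on the median of the genes read in all libraries, the log2 difference was 2.54. That centring moved the median log2 difference of all genes, 0.00 without it, by -0.71. Nadsyn1 went the other way, with 22 and 30 reads in the early 2-cell libraries (1.18 and 1.95 FPKM) and 0 and 1 reads in the late 2-cell control libraries. The ratio of reads per library total was 54.1, with a 95% exact interval of 9.28 to 2175 that covers counting error only. On the log2(FPKM + 1) scale Nadsyn1 was lower in late 2-cell embryos by a difference of -1.29 ± 0.31 (SE), with an adjusted p of 0.0201 in limma, but fitted on the 2 columns alone the adjusted p was 0.149, and without early 2-cell library B or late 2-cell control library A it was 0.0841 or 0.0650. With a pseudocount of 0.1 it was 0.0552. Nadsyn1 reached 1 FPKM per library in the early 2-cell column alone and entered the tests through it, so its call is given as a description.

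The other 5 tested genes did not pass the threshold at this transition in the fit over all columns. Kynu had 4 and 27 reads in the early 2-cell libraries and none in the 2 late 2-cell control libraries, a level in early embryos at least 10.7-fold higher against 3 reads over the group, with an adjusted p of 0.185 in limma. The log2 difference of Kynu was -0.56, and -0.96 or -0.16 without early 2-cell library A or B, where 1 library stood for the group. With libraries centred as for Nmnat1 it was -1.27, with an adjusted p of 0.0103 in limma. Centring moved this difference by the same -0.71 for every gene, genes without reads included, so nothing is read from that p. Nmnat2 was at 2.15 and 1.90 FPKM in early and at 1.67 and 1.08 FPKM in late 2-cell control libraries, without overlap, with a log2 difference of -0.36 ± 0.60 (SE). Slc25a51 was at 13.1 and 9.61 FPKM and then at 18.7 and 20.5 FPKM, and Nadk at 24.7 and 30.8 FPKM and then at 34.7 and 57.1 FPKM. For both genes each late library lay above both early libraries, with log2 differences of 0.75 ± 0.71 and 0.67 ± 0.63 (SE) and adjusted p-values of 0.548 and 0.546 in limma. With libraries centred as for Nmnat1, the log2 difference of Slc25a51 was 0.04 and that of Nadk -0.04. Nmnat3 had 0 reads in both early libraries and 0 and 29 reads in the late 2-cell control libraries. Of the 7 tested genes, 1 was higher and 1 lower in late 2-cell embryos, against 14.8% of all 11543 genes called in either direction. With the 2 columns fitted alone, 1 of 5 tested genes was called, against 20.3% of 8947. The median log2 difference was 0.63 over the 7 genes and 0.00 over all genes tested. Centring moved each of these differences by -0.71, so no rise of the 7 genes is read from these medians.

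**Figure D2:**
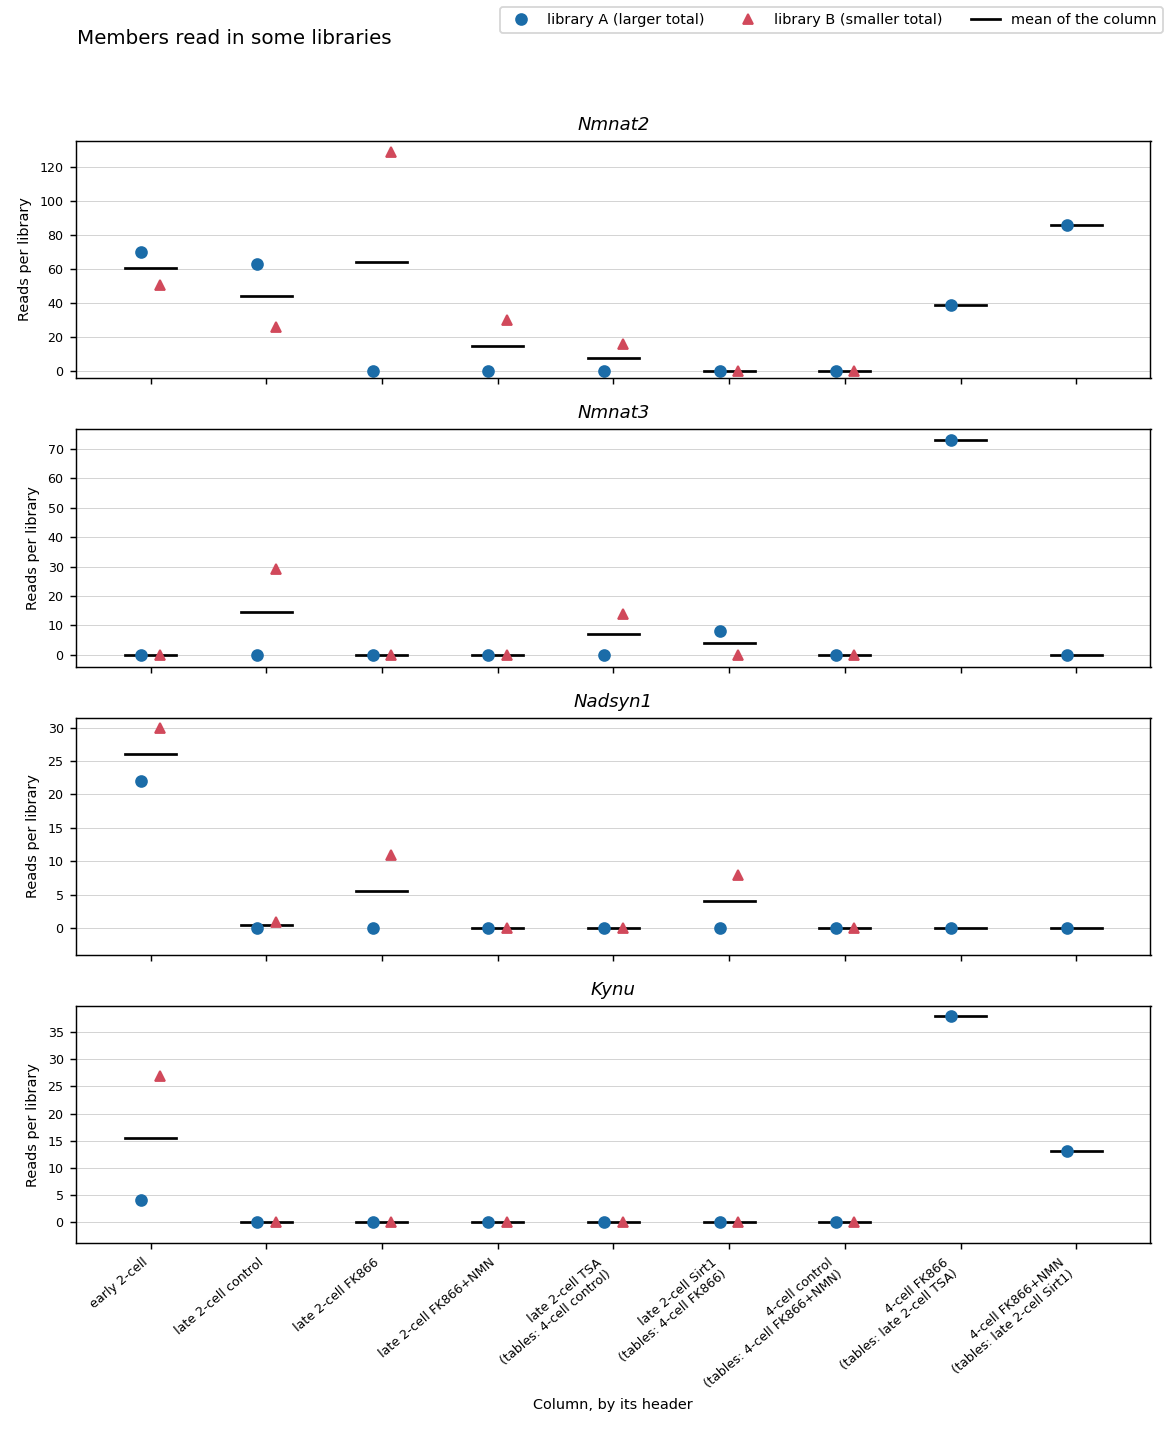
Reads per library (y axis) of Nmnat2, Nmnat3, Nadsyn1 and Kynu in the 9 columns (x axis, by header, with the group of the study's tables in brackets), with library A as circles, library B as triangles and the column mean as a bar. Nadsyn1 has 22 and 30 reads in early 2-cell embryos and at most 11 in any other library, and Nmnat3 has its highest count, 73, in the single library headed 4-cell FK866.

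The next comparisons, all in columns whose groups are not in dispute, asked how inhibition of NAMPT and its bypass by NMN altered late 2-cell embryos, and they share the control or the FK866 libraries. In FK866 embryos Nmnat1 was at 9.33 and 11.7 FPKM (254 and 290 reads), below both control libraries at 15.1 and 33.8 FPKM. The log2 difference was -1.05 ± 0.52 (SE), with an adjusted p of 0.558 in limma, so that a level 2.32-fold higher in control embryos did not pass the test. In FK866+NMN embryos Nmnat1 was at 14.0 and 10.3 FPKM, within 0.19 ± 0.52 (SE) of FK866 embryos on the log2 scale and again below both control libraries. The FK866 and FK866+NMN libraries thus overlapped each other and lay below the control, with no comparison past the threshold.

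Slc25a51 showed its lowest levels in FK866+NMN embryos. It was at 18.7 and 20.5 FPKM in control, at 6.42 and 29.0 FPKM in FK866 and at 4.42 and 0.712 FPKM in FK866+NMN embryos, the last with 206 and 21 reads. Both FK866+NMN libraries lay below all 4 others, and the 2 FK866 libraries lay on either side of the control. Against the control the log2 difference was -2.75 ± 0.71 (SE), with an adjusted p of 0.0680 in limma. The adjusted p was 0.0474 over genes of at least 5 FPKM and 0.508 with the 2 columns fitted alone. It was under the threshold in 2 of 12 alternatives, the other with FK866+NMN library B alone standing for its group. Against FK866 the log2 difference was -2.29 ± 0.71 (SE), with an adjusted p of 0.151 in limma. It was past the threshold in 1 of 12 alternatives, where FK866 library B, the higher of the 2, alone stood for its group. The FK866+NMN column also had the fewest genes above 0 FPKM of any column, 7945 against 9742 in control and 10160 in FK866 embryos. Of all genes, 214 were called lower and 30 higher in FK866+NMN than in FK866 embryos, and 339 lower and 66 higher than in control. In its library A the oocyte and 2-cell genes Zp2, Zp3, Zfp352 and Tdpoz4 were at 0, but Tle6 was at 176 and Padi6 at 63 FPKM. The sum of the 5 oocyte genes was 254 FPKM in library A and 157 in library B. That of the 5 2-cell genes was 86.3 and 302 FPKM. Library B, with the lower Slc25a51 level, had Zp2, Zp3 and Zfp352 at 24.2, 38.6 and 59.3 FPKM. The part of these features in the low Slc25a51 was not tested. Nadk, in the same embryos, was at 57.0 and 15.0 FPKM in FK866+NMN, and the second was its lowest level in any of the 16 libraries. It was at 32.6 and 65.6 FPKM in FK866 embryos, with a log2 difference from control of 0.06 ± 0.63 (SE).

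The low members differed between the libraries of 1 group. Nmnat2 had 0 reads in FK866 library A and 129 in library B, and 0 and 30 reads in the FK866+NMN libraries, against 63 and 26 in control. Nmnat3 had 29 reads in control library B and none in control library A or in the 4 FK866 and FK866+NMN libraries. The log2 difference of Nmnat3 between FK866 and control embryos was -0.63, and -1.26 without control library A, where library B alone stood for the control. Nadsyn1 had 11 reads in FK866 library B and at most 1 in the other 5 late 2-cell libraries of these groups, and Kynu had none in these 6.

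No member was called in these 3 comparisons in limma. For FK866 over control 0.407% of all genes were called and no member had an unadjusted p under 0.05. For FK866+NMN over FK866, with 2.11% of all genes called, and for FK866+NMN over control, with 3.51%, 1 member each, Slc25a51, had an unadjusted p under 0.05. The median log2 differences of the 7 tested genes were -0.28, -0.25 and -0.63, and those of all genes 0.00, -0.09 and -0.11. With the 2 columns of each comparison fitted alone, 0 genes of any kind were called in all 3.

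**Figure D3:**
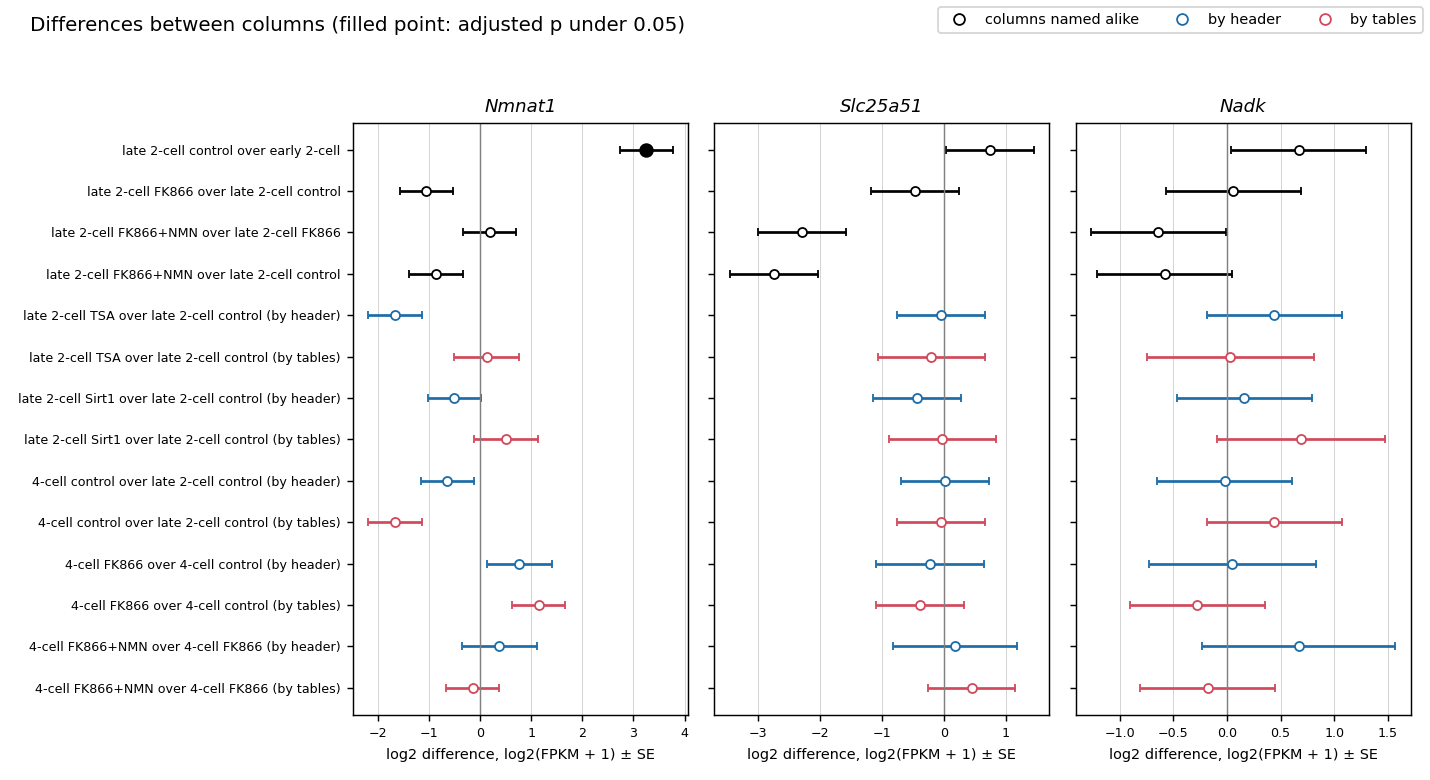
Log2 differences on the log2(FPKM + 1) scale (x axis) of Nmnat1, Slc25a51 and Nadk in each comparison (y axis), with bars of 1 SE from the fit over all columns. Black points are from columns named alike by header and tables, blue from headers and red from tables, and the 1 filled point, with an adjusted p under 0.05, is Nmnat1 in late 2-cell control over early 2-cell embryos at 3.25.

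The TSA and Sirt1 knockdown comparisons asked about histone deacetylation at the late 2-cell stage, and what they show depends on the reading. By header, TSA embryos had Nmnat1 at 4.42 and 9.43 FPKM (92 and 187 reads), the lowest of any group after early 2-cell embryos. The log2 difference from late 2-cell control was -1.66 ± 0.52 (SE), with an adjusted p of 0.0751 in limma. It was past the threshold in 1 of 12 alternatives, where control library B, the higher of the 2, alone stood for the control. No member was called, 1 had an unadjusted p under 0.05, and 10.4% of all genes were called. By the tables the TSA group is the 1 library headed 4-cell FK866, with Nmnat1 at 24.9 FPKM, between the 2 control libraries. There Kynu had 38 reads (1.32 FPKM) against 0 in both control libraries, at least 28.9-fold higher against 3 reads over the group, with an adjusted p of 0.0394 in limma. Nmnat3 had 73 reads (3.12 FPKM), above control at 0 and 1.39 FPKM, with an adjusted p of 0.0925. Kynu was the 1 of 7 tested genes past the threshold by this reading, against 8.50% of all genes, but Kynu and Nmnat3 reached 1 FPKM in this library alone and entered the tests through it, so nothing is read from this count. The library alone stood for its group, was assumed to vary like the others, and was the one with the highest summed blood and cumulus cell genes, whose part in the Kynu and Nmnat3 reads was not tested.

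By header, Sirt1 knockdown embryos had Nmnat1 at 17.6 and 14.0 FPKM, Slc25a51 at 14.9 and 13.7 FPKM and Nadk at 67.9 and 36.6 FPKM. Slc25a51 lay below both control libraries, and the other 2 genes overlapped them. Nmnat2 had no reads in either library, which allowed up to 0.0519 and 0.164 FPKM, against 1.67 and 1.08 FPKM in control, with an adjusted p of 0.276 in limma. By the tables the knockdown library had Nmnat1 at 32.7 FPKM, Nadk at 72.7 FPKM, the highest of all libraries, Slc25a51 at 19.2 FPKM and Nmnat2 at 2.15 FPKM (86 reads). Kynu had 13 reads in it. In limma, 0 members were called by either reading, none had an unadjusted p under 0.05, and 7.79% of all genes were called by header and 0.996% by the tables.

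The stage comparison of 4-cell with late 2-cell control embryos also depended on the reading. By header, the 4-cell control libraries had Nmnat1 at 15.6 and 12.9 FPKM, Slc25a51 at 26.5 and 14.9 FPKM and Nadk at 58.5 and 32.9 FPKM. All 3 genes overlapped the late 2-cell control libraries. Nmnat2, Nmnat3, Nadsyn1 and Kynu had no reads there, and 0 members were called in limma, with none at an unadjusted p under 0.05, against 6.15% of all genes. By the tables the 4-cell control is the column headed TSA, so its comparison with late 2-cell control is the one given above under that name. Nmnat1 was then lower in 4-cell than in late 2-cell control embryos, 3.53-fold in the means, without passing the test. Slc25a51 was at 19.6 and 18.2 FPKM and Nadk at 59.3 and 62.5 FPKM, the latter above both late 2-cell control libraries with an adjusted p of 0.814 in limma.

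At the 4-cell stage the level of Nmnat1 was higher in FK866 than in control libraries in both readings, without passing the test. By header, Nmnat1 was at 24.9 FPKM in the 1 FK866 library against 15.6 and 12.9 FPKM in control, with a log2 difference of 0.77 ± 0.63 (SE) and an adjusted p of 0.468 in limma. By the tables, it was at 17.6 and 14.0 FPKM in FK866 against 4.42 and 9.43 FPKM in control, with a log2 difference of 1.15 ± 0.52 (SE) and an adjusted p of 0.859. Each FK866 library lay above each control library, in contrast to late 2-cell embryos, where each lay below. The share of all genes with such a separation is not given, so nothing is read from it. The difference between the stages, the FK866 effect at the 4-cell minus that at the late 2-cell stage, was 1.82 ± 0.82 (SE) by header and 2.20 ± 0.73 (SE) by the tables on the log2 scale. Its p was 0.0510 and its adjusted p 0.217 by header, and its p was 0.0134 and its adjusted p 0.435 by the tables, both in limma over 11543 genes. In FK866+NMN embryos at the 4-cell stage Nmnat1 was at 32.7 FPKM by header and at 15.6 and 12.9 FPKM by the tables, and the latter differed from FK866 by -0.14 ± 0.52 (SE).

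**Figure D4:**
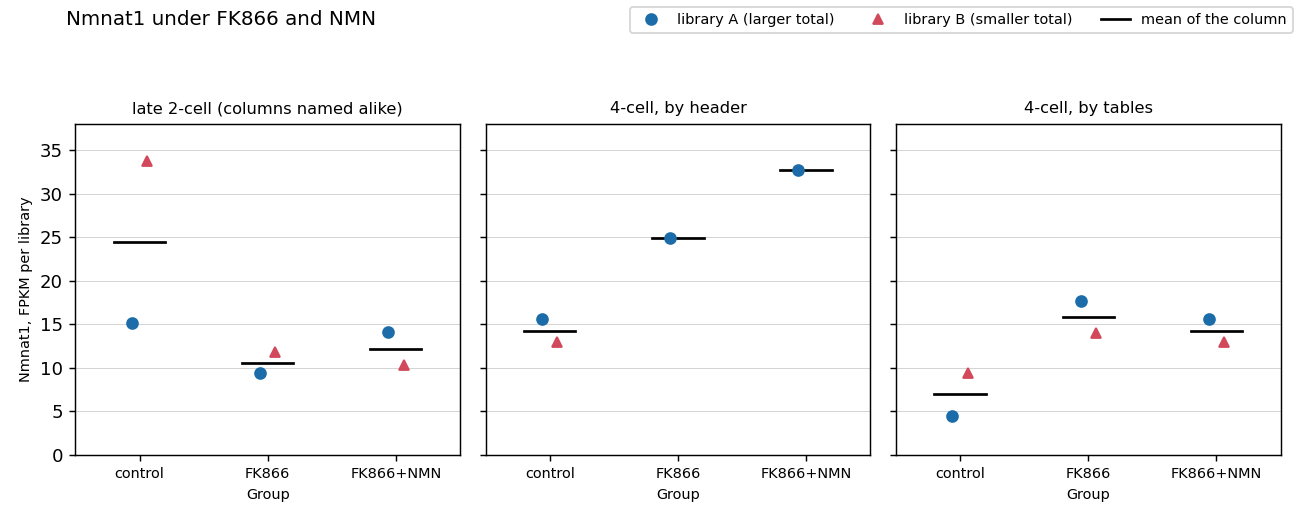
FPKM per library of Nmnat1 (y axis) in control, FK866 and FK866+NMN embryos (x axis) at the late 2-cell stage and at the 4-cell stage by header and by tables. Circles are library A, triangles library B and bars the column mean, and FK866 libraries lie below both controls at the late 2-cell stage (9.33 and 11.7 FPKM) and above them at the 4-cell stage in both readings.

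By header, the same library is the 1 library of 4-cell FK866 embryos, and its reads of 3 low members are given as a description. Nmnat3 had 73 reads there and none in the 2 control libraries, at least 52.6-fold higher against 3 reads over the group. Kynu had 38 reads and none in control, at least 27.4-fold higher, and Nmnat2 had 39 reads and none in control, at least 28.1-fold higher. The adjusted p-values in limma were 0.0119 for Nmnat3, 0.0222 for Kynu and 0.270 for Nmnat2, so that 2 of 7 tested genes were past the threshold, against 19.8% of all genes. In FK866+NMN embryos by header Nmnat3 had 0 reads in the 1 library, at least 35.9-fold lower than in FK866 embryos, with an adjusted p of 0.0462 in limma. This was 1 of 7 tested genes, against 6.72% of all genes. Nothing is read from these 2 counts, since Nmnat3 and Kynu entered the tests through the FK866 library alone and the spread of a single library was taken from the other columns. By the tables none of these genes was past the threshold. Nmnat3 then had 8 and 0 reads in 4-cell FK866, 0 and 14 in control and none in FK866+NMN embryos, Kynu had none in these 6 libraries, and Nmnat2 had 16 reads in control library B alone. By the tables, no member was called in limma for FK866 over control and for FK866+NMN over FK866, none with an unadjusted p under 0.05, against 0.0953% and 0.130% of all genes.

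Ordered by level, neighbouring columns mostly overlapped in their libraries. For Nmnat1 the early 2-cell column (mean 1.55 FPKM) lay below the next, headed TSA (6.93 FPKM), without overlap. The columns of FK866 (10.5), FK866+NMN (12.2), those headed 4-cell control (14.2) and Sirt1 (15.8), late 2-cell control (24.5) and the column headed 4-cell FK866 (24.9 FPKM) each overlapped the next. The single library headed 4-cell FK866+NMN, at 32.7 FPKM, was the highest column and lay just under the higher control library. Among the 12263 genes that reached 1 FPKM per library somewhere, Rpl23a-ps4 and Socs2 were among those with the pattern over the 9 columns most like that of Nmnat1, with Pearson's r of 0.922 and 0.918 on the log2(FPKM + 1) scale. For Nadk they were Mafk, Ftl2-ps and Gm28439, with r of 0.959, 0.958 and 0.947. The 9 columns share the early 2-cell group as their low end, for these and for many other genes, and reads of the pseudogenes Rpl23a-ps4 and Ftl2-ps may come from their parent genes.

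The other genes of the pathway were less well covered. Of 42 further genes listed for the synthesis, transport and breakdown of NAD+, 16 had a row and 11 of these were tested. At the transition from early to late 2-cell embryos 0 of the 11 were higher and 2 lower in limma, against 14.8% of all genes called in either direction. Their median log2 difference was -0.51, and that of all genes 0.00. Nudt7, a peroxisomal coenzyme A diphosphatase, went from 45.0 to 4.83 FPKM per library, a log2 difference of -3.01 ± 0.65 (SE) with an adjusted p of 0.0119, and 0.0184 with the 2 columns alone. Slc22a13, an organic anion transporter that takes nicotinate, went from 3.03 to 0.153 FPKM with an adjusted p of 0.0316, and 0.139 with the 2 columns alone, and it reached 1 FPKM per library in the early 2-cell column alone. By header, Kyat1, a kynurenine aminotransferase, was at 4.02 FPKM in 4-cell FK866 and at 0.187 FPKM in control embryos, with an adjusted p of 0.0478, and 0.0882 with the 2 columns alone. Kyat1 was the 1 of 11 genes called there, against 19.8% of all genes. In the other comparisons, in either reading, 0 of the 11 genes were called. The highest of them was Naxe, the epimerase that repairs damaged NADH and NADPH, at a mean of 33.3 FPKM over the columns, followed by the amino acid carrier gene Slc7a5 at 13.2, Nudt7 at 8.27 and the phosphodiesterase gene Enpp3 at 4.17 FPKM. Naxe was at 67.2 FPKM in late 2-cell control and at 10.4 FPKM in FK866 embryos, with a log2 difference of -2.71 ± 1.31 (SE) and an adjusted p of 0.558 in limma.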

How the data were processed

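RNA-seq of 18 mouse embryo samples was used, and 24 H3K27ac samples were not analysed here. The authors trimmed the reads, mapped them with HISAT2 on mm10, used featureCounts for counts per gene and deposited FPKM with 1 column per group. CASAVA 1.4 is named in the submitters' processing notes. The 15747 complete rows cover chromosomes 1 to 11.

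With GENCODE M21 exon lengths, FPKM values gave whole reads, and between 96.4% and 97.8% of values above 0 per column were split between libraries. Libraries were compared on log2(FPKM + 1) in limma 3.58.1 (R 4.3.3) with a trend, all 9 columns in 1 fit with 7 residual degrees of freedom, over the 11543 genes that reached 1 FPKM per library in any column. A gene was called at a Benjamini-Hochberg adjusted p under 0.05, two-sided. The deposited values are FPKM, so the planned test was not a count test, and no count test was run on the recovered reads. In addition, each comparison was fitted on its 2 columns alone, an alternative chosen after seeing the data. Both fits were tested on simulated data. The fit over all columns called unchanged genes that were at 0 in most columns more often than the fit on 2 columns. Both missed most of the simulated 4-fold changes. The fit over all columns called 43 of 11332 unchanged genes, 17 of 100 raised 4-fold and 6 of 96 lowered 4-fold. Most of its calls there were unchanged genes, so its adjusted p-values did not hold the share of false calls under 0.05. The test of the difference between stages used the genes and columns of the first. Other steps ran in Python 3.11.15 with scipy 1.17.1, pandas 2.3.3 and numpy 2.4.6, and figures in matplotlib 3.10.9.

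The genes, the lists and the tests were chosen with earlier results of these data known. All 10 genes are named. Of the other pathway genes those called with the smallest p and those with the highest mean are named, at most 4 each, with the 3 genes most correlated with each of the 2 highest members, 1 of which is not reported here, and Sirt1.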

Additional observations from a re-analysis of the deposited data

Results flagged for a closer look

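The estimated FK866 effect on Nmnat1 had opposite signs at the stages, and no single FK866 comparison passed the threshold. Every FK866 library lay below every control library in late 2-cell embryos and above in 4-cell embryos. This separation is what flagged Nmnat1, so it adds no support. By header the 4-cell FK866 group is 1 library, and the share of all genes separated in this way is not given. The difference of the 2 effects was 1.82 (SE 0.82, adjusted p 0.217 in limma) with columns by header and 2.20 (SE 0.73, adjusted p 0.435) by the tables, so it did not pass the threshold in either reading. By header, 1115 genes, 9.66% of those tested, passed this test in limma, and by the tables none did (limma), with 824 at an unadjusted p under 0.05.

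For Nmnat3 the difference between the stages was 2.67 (SE 0.58, adjusted p 0.0201 in limma) by header, and 0.48 (SE 0.52, adjusted p 0.876) by the tables. By header it rests on 73 reads in the 1 library of 4-cell FK866, through which alone Nmnat3 entered the tests, and on 29 reads in late 2-cell control library B, so the p restates that high library and nothing is read from it.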

How the results depend on the processing

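The higher level of Nmnat1 in late than in early 2-cell embryos kept its direction and its adjusted p under 0.05 in all 12 alternatives, with log2 differences from 2.10 to 3.87 and adjusted p-values from 0.00221 to 0.0276. The number of genes called at this transition was 2. It was 1 with a pseudocount of 0.1, over genes of at least 5 FPKM, and with the 2 columns alone. It was 3, with Kynu, with libraries centred, a setting that also shifted genes without reads. By a log2 fold change past 1 with no test, 1 gene was counted in each of the late 2-cell comparisons of FK866, TSA and Sirt1 with control and of FK866+NMN with FK866 and with control, and in 4-cell against late 2-cell control, where limma called 0. Over genes of at least 5 FPKM the count was 1 for FK866+NMN over late 2-cell control and 0 for both 4-cell treatments. With columns by the tables it was 1 for TSA, 0 for 4-cell FK866 and 0 for 4-cell FK866+NMN over FK866, and Nmnat3 in 4-cell FK866 turned from 2.04 to -0.15. With a pseudocount of 0.1, and with limma without a trend, 1 gene was called in 4-cell FK866 over control by header, in place of 2, and 0 in FK866+NMN over FK866, in place of 1. Leaving out 1 library gave 2 to 3 genes at the early to late 2-cell transition, 0 to 2 for TSA, 2 for 4-cell FK866, and 0 to 1 for the other comparisons with 2 libraries on a side, and without late 2-cell control library A Nmnat3 was called in each comparison with that control. There library B, the only late 2-cell control library with Nmnat3 reads, stood alone for the control, so nothing is read from those calls. The share of all genes called under the same alternatives is not given here, so nothing is read from these counts of genes. Of 660 single values under alternatives, 586 kept their direction and side of the threshold. Centring libraries on the median of the genes read in all libraries moved the all-gene median by -0.71 for late over early 2-cell. It moved it by up to 0.39 in the other comparisons.

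No paired analysis was possible because the columns carry no replicate number. With 1 or 2 libraries per group, a log2 difference of -1.66 in Nmnat1 did not pass the threshold, and a level of up to 3 reads in a library could not be told from absence.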
